A study of Homo sapiens with 9 samples.

Results

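The nuclear-encoded subunits of oxidative phosphorylation were followed in A549, a human lung adenocarcinoma cell line, after knockdown of NRF2 by siRNA. NRF2, encoded by NFE2L2, is a transcription factor that turns on antioxidant genes. The members were the probe sets of 1 gene each whose current symbol begins with NDUFA, NDUFB, NDUFC, NDUFS or NDUFV and a digit, UQCR, COX4 to COX8 or ATP5, or is SDHA, SDHB, SDHC, SDHD, CYC1 or CYCS. The brightest probe set stood for each gene. This gave 83 of the 19775 genes measured: 32 of complex I, 3 of complex II, 7 of complex III, cytochrome c, 17 of complex IV, 18 of complex V, 3 non-coding RNAs and 2 pseudogenes that share the name prefix. The rule reads names and no levels. NDUFA4 and NDUFA4L2, which are now named COXFA4 and COXFA4L2 and belong to complex IV, fall outside the rule. Genes of these complexes that are read only by probe sets naming several genes were not analysed here.

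All cells were A549 grown in high-glucose medium and handled with Lipofectamine 2000. Mock cells received the reagent alone, NS siRNA cells a non-targeting siRNA at 25 nM, and Nrf2 siRNA cells an siRNA against NRF2 at 25 nM. RNA was taken 96 h after transfection, from 3 biological replicates per group on 9 arrays. There is a single Nrf2 siRNA and no rescue, so NRF2 loss and an off-target effect of that siRNA cannot be told apart.

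Oxidative phosphorylation takes place in the inner mitochondrial membrane. Complex I (NADH dehydrogenase) and complex II (succinate dehydrogenase) pass electrons to ubiquinone, complex III (the cytochrome bc1 complex) passes them to cytochrome c, and complex IV (cytochrome c oxidase) passes them to oxygen. Complexes I, III and IV pump protons across the membrane, and complex V (ATP synthase) uses the proton gradient to make ATP. Most subunits are encoded in the nucleus and imported, and the rest by the mitochondrial genome, of whose 13 protein-coding genes 0 were among the genes measured here. The nuclear factor that activates many of these subunit genes is called NRF1, a different protein from NRF2 in spite of the similar name.

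Levels are on the log2 scale after RMA, so a difference of 1 is a 2-fold change, and levels of different probe sets are not comparable with each other. The targeted transcript, NFE2L2, had a log2 level of 10.25 ± 0.11 (SD, n = 3) after Nrf2 siRNA, where mock had 11.99 ± 0.08 and NS siRNA 12.09 ± 0.06, so 27.9% of the NS siRNA level was left. The 9 array medians lay between 7.51 and 7.57, and 77 of the 83 members had a mean above 7.54, the median of all probe sets. No detection calls were used, so the 6 others have no test against background. The median SD between replicates was 0.0367 for the members and 0.0583 over all genes. With 3 arrays a group, precision is limited by their number. The epithelial keratins KRT8 and KRT18 stood at 14.17 and 14.88 in mock, and the T-cell gene CD3E, the endothelial gene VWF and the fibroblast gene DCN between 7.73 and 8.49 in every group. These are examples from longer lists, and other markers narrow the contrast. Gene means over the 9 arrays ran from 9.27 to 14.94 for the epithelial markers and from 7.34 to 10.81 for the fibroblast markers, so these lists overlapped. They ran from 7.22 to 8.43 for the immune and from 5.49 to 8.91 for the endothelial markers. The mean level of the 5 epithelial markers moved with the groups: 11.46 to 11.52 in mock cells, 11.91 to 11.94 in NS siRNA cells and 12.28 to 12.43 in Nrf2 siRNA cells. The mean of 6 fibroblast markers ran from 8.23 to 8.35 in mock cells, 8.03 to 8.07 in NS siRNA cells and 8.49 to 8.55 in Nrf2 siRNA cells, with COL1A1 and COL3A1 higher than in NS siRNA and 4 not past the threshold. Of 3 immune markers measured, CD14 was higher than NS siRNA by 0.96 and than mock by 0.99, and the mean of the 3 ran from 7.73 to 7.86 in mock, 7.83 to 7.93 in NS siRNA and 8.12 to 8.23 in Nrf2 siRNA. Of 3 endothelial markers CDH5, which was dim, was higher by 0.19 and 0.23, and their mean overlapped between the groups. CD14 and CDH5 are named after their values were seen. The part of these markers in the results was not tested. In bulk RNA, fewer cells that express a gene and less of its RNA per cell cannot be told apart.

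After Nrf2 siRNA more members were lower than higher, by small amounts. Complex I, with 32 of the 83 members, held 13 of the 29 lower calls against NS siRNA and 15 of the 23 against mock. The largest falls against NS siRNA were those of ATP5MC1, a gene for the c ring of ATP synthase, NDUFV3 of complex I and CYC1, cytochrome c1 of complex III. Against NS siRNA 29 of 83 members were lower and 10 higher at a limma adjusted p under 0.05 (34.9% and 12.0%), while 26.6% of all genes were called lower and 21.0% higher, 47.6% in either direction. Against mock 23 members were lower and 0 higher, where 16.7% of all genes were lower and 16.4% higher, 33.0% in either direction. At an unadjusted limma p under 0.05 a single member, NDUFV2, was higher than mock. The median difference over the members was -0.09 against NS siRNA and -0.07 against mock, and over all genes -0.05 and -0.02. Both comparisons use the same Nrf2 siRNA arrays and are not independent. The called members changed little: the median size of their change was 1.16-fold (1.24-fold over all called genes) when set against NS siRNA, and 1.19-fold (1.22-fold) when set against mock.

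In 25 members the 3 Nrf2 siRNA arrays lay below all 6 control arrays, an arrangement found in 17.0% of all genes, and in 4 (COX5B, COX6A1, COX7C and NDUFA3) above all 6, found in 14.9% of all genes. The lowest of the 3 group means was that of Nrf2 siRNA in 55 members (66.3%), against 47.7% of all genes. Leaving out each array in turn kept 20 of the 29 lower and 7 of the 10 higher calls against NS siRNA, and 17 of the 23 lower calls against mock.

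**Figure D1:**
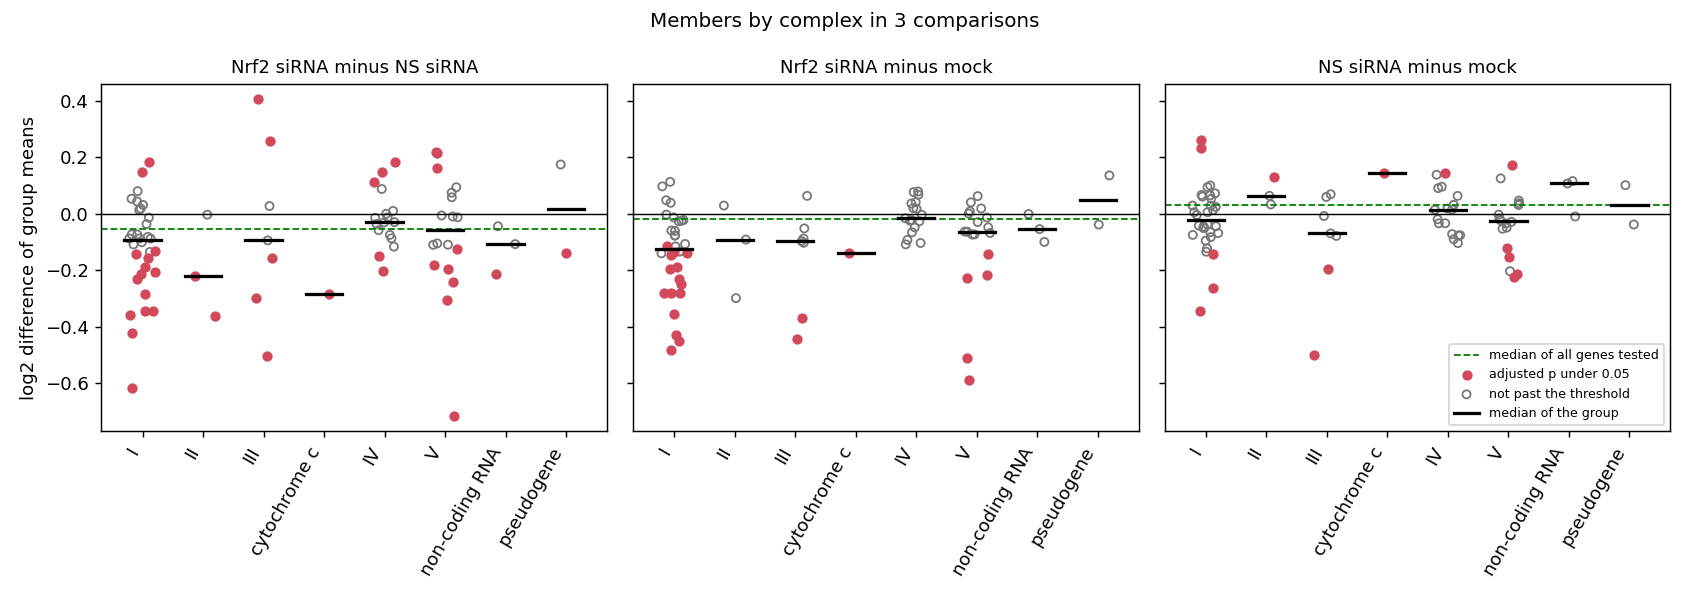
Log2 difference of group means for each of the 83 members, by complex, in the 3 comparisons (y axis, log2; filled points pass a limma adjusted p under 0.05; black bar, median of the group; dashed line, median of all 19775 genes). The points of complex I lie mostly below 0 in both Nrf2 siRNA panels, with a median of -0.10 and -0.13, and no complex IV point is filled for Nrf2 siRNA minus mock, while 1, COX7A2, is filled for NS siRNA minus mock.

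The NS siRNA itself moved some members against mock: 9 were lower and 6 higher, 10.8% and 7.23%, where 15.2% and 15.6% of all genes were called, 30.8% in either direction. With equal array medians the split was 10 lower and 3 higher, and with quantile normalization 10 and 9. Each member called after Nrf2 siRNA is therefore given against both controls. Some of the members not called are given against NS siRNA alone or are not named.

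Promoter sequences from RefSeq (GRCh38.p14) were found for 66 of the 78 protein-coding members. The window ran from 250 bases before the annotated start to 50 after it and was searched on both strands for the letters of 4 factors known at mitochondrial or antioxidant genes. The letters of the NRF1 motif were present in 16 of 66 (24.2%), against 6.29% of all 27305 promoters in the table. The ETS letters CCGGAAG, read by GABP (also called NRF2, an unrelated protein), were present in 18 (27.3%, against 10.7%). The YY1 letters AAGATGGCG were present in 7 (10.6%, against 1.85%). The antioxidant response element, TGACNNNGC, to which NFE2L2 binds with a small MAF partner, was present in 10 (15.2%, against 13.6% of all promoters). Among the 22 members lower than NS siRNA with a promoter in the table, 3 held the antioxidant element, among the 10 higher 2, and among the 34 not called 5. The NRF1 letters were in 4 of the 22, 4 of the 10 and 8 of the 34. For the ETS letters these counts were 6, 3 and 9, and for the YY1 letters 4, 0 and 3. None of these motifs overlaps another in the sequences printed here, and a match is a string of letters, not a measured binding site.

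The sequences of 5 members are shown because their transcripts moved differently: ATP5MC1 had the largest fall, NDUFS3 and UQCRC1 fell against both controls, SDHD fell against NS siRNA and not past the threshold against mock, and UQCR11 rose against NS siRNA. Each is the stretch of 250 bases before the annotated start, 5′ to 3′ on the gene's strand, with matches to the motifs in capitals (either orientation).
ATP5MC1: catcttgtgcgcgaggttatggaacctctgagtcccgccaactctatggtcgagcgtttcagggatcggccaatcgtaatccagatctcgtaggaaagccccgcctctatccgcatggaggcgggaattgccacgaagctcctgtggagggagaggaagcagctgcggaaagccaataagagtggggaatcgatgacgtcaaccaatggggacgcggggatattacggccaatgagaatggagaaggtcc
NDUFS3: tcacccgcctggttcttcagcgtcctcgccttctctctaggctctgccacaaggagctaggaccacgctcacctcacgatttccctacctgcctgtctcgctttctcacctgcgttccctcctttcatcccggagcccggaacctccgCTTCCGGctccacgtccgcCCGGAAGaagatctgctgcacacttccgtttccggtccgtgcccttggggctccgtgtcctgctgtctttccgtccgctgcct
SDHD: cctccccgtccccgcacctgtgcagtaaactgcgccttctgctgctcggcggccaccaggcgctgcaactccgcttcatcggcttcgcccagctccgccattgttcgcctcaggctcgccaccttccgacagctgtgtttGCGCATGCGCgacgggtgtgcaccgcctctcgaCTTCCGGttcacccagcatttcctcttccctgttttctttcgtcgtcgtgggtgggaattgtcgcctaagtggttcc
UQCRC1: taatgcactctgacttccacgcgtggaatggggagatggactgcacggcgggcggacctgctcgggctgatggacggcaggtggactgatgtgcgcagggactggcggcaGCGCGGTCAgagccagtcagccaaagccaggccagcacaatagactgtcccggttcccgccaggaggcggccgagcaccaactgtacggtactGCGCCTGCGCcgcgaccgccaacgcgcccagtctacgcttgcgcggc
UQCR11: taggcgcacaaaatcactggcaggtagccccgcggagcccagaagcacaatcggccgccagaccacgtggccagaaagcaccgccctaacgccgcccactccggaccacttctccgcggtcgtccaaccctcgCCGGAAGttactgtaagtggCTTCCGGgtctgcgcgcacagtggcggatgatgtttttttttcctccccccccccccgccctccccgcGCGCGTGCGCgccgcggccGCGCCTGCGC
The ATP5MC1 stretch (chr17:48892537-48892786, plus strand) holds no match to the 4 motifs. That of NDUFS3 (chr11:47578824-47579073, plus) holds the ETS letters 96 and 77 bases before the start, in opposite orientations. That of SDHD (chr11:112086623-112086872, plus) holds the NRF1 letters at 101 and the ETS letters at 71. That of UQCRC1 (chr3:48609647-48609896, minus) holds the antioxidant letters at 132 and the NRF1 letters at 38, and the YY1 letters were found in its searched window reaching past the start. That of UQCR11 (chr19:1605463-1605712, minus) holds the ETS letters at 111 and 91 and the NRF1 letters at 20 and 1, and its searched window also held the antioxidant letters, reaching past the start. Distances count from the last base of the match to the start. The NRF1 and ETS letters stand in the UQCR11 promoter and also in promoters of members lower than NS siRNA. UQCR11 was higher than NS siRNA but only 0.06 from mock (limma adjusted p = 0.306), and NS siRNA itself stood at -0.20 from mock. The part of these motifs in the differences was not tested.

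Complex I, the largest group with 32 of the 83 members, held the most lower members. Of its 32 genes 13 were lower and 2 higher than NS siRNA (40.6% and 6.25%), and 15 lower and 0 higher than mock (46.9% lower). Of all genes 26.6% were lower and 21.0% higher than NS siRNA, and 16.7% and 16.4% against mock. In complex III the lower share was 42.9% against NS siRNA and 28.6% against mock. Of the 5 measured core subunits, which carry the flavin and the iron-sulfur clusters or lie next to ubiquinone, 4 were lower against both controls, and of the 27 supernumerary subunits 9 and 11.

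NDUFS3, a core subunit of the matrix arm, read 12.24, 12.20 and 12.18 in mock, 12.26, 12.32 and 12.24 in NS siRNA, and 11.92, 11.94 and 11.91 in Nrf2 siRNA. The Nrf2 siRNA arrays were the lowest 3 of the 9 by a clear gap. NDUFS3 fell by -0.35 ± 0.04 (SE, log2) against NS siRNA (limma adjusted p = 1.92e-05) and by -0.28 against mock (adjusted p = 0.000202), to 78.7% and 82.3% of the control level. NDUFS7, whose iron-sulfur cluster hands electrons to ubiquinone, read 10.62, 10.78 and 10.70 in mock, 10.57, 10.61 and 10.55 in NS siRNA, and 10.06, 10.34 and 10.26 in Nrf2 siRNA. It fell by -0.36 ± 0.07 against NS siRNA (adjusted p = 0.000711) and -0.48 against mock (adjusted p = 0.000113), with no overlap between Nrf2 siRNA and control arrays. A dimmer NDUFS7 probe set differed by -0.07 from NS siRNA and did not pass.

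The other core subunits were picked out after their values were seen. NDUFS1, the largest iron-sulfur subunit, fell by -0.34 ± 0.05 and -0.25 ± 0.05 (limma adjusted p = 0.000116 and 0.00219), although the 4 dimmer probe sets of the gene did not pass against NS siRNA. NDUFV1, which binds the flavin and NADH, fell by -0.16 and -0.20 (adjusted p = 0.0125 and 0.00465). NDUFV2, its iron-sulfur partner, did not pass: it stood at 0.01 against NS siRNA (95% interval -0.09 to 0.12) and 0.11 against mock (0.01 to 0.22, adjusted p = 0.093).

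Among the supernumerary subunits, NDUFV3, of the NADH-oxidising end, had the largest difference in complex I. It read 10.93, 10.93 and 10.86 in mock, 11.20, 11.19 and 11.12 in NS siRNA, and 10.54, 10.62 and 10.49 in Nrf2 siRNA. The 3 groups did not overlap: NS siRNA was above mock by 0.26 ± 0.05 (SE; limma adjusted p = 0.00118) and Nrf2 siRNA below NS siRNA by 0.62 and below mock by 0.36. Against NS siRNA NDUFV3 was at 65.2% (adjusted p = 3.67e-07) and against mock at 78.2% (adjusted p = 9.42e-05). Its other probe set, at a mean of 8.14, differed from NS siRNA by 0.09 ± 0.06 and did not pass. NDUFA7 read 10.35, 10.39 and 10.30 in mock, 10.57, 10.63 and 10.54 in NS siRNA, and 10.10, 10.28 and 10.10 in Nrf2 siRNA. It fell by -0.42 ± 0.06 against NS siRNA (adjusted p = 4.01e-05) and by -0.19 against mock (adjusted p = 0.02). The latter call was lost without mock replicate 1 (adjusted p = 0.0573), mock replicate 2 (0.0685), Nrf2 siRNA replicate 1 (0.0742) or Nrf2 siRNA replicate 3 (0.0807). NDUFB10, a subunit of the membrane arm, read 12.55, 12.59 and 12.53 in mock, 12.42 on each NS siRNA array, and 12.13, 12.15 and 12.11 in Nrf2 siRNA. It fell by -0.29 ± 0.04 against NS siRNA (adjusted p = 6.63e-05) and by -0.43 against mock (adjusted p = 3.63e-06). NS siRNA lay between the other groups, lower than mock by 0.14 (adjusted p = 0.0172; 0.0615 without mock replicate 2).

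Some complex I subunits differed between the controls as much as from Nrf2 siRNA. NDUFA5 read 10.95, 10.97 and 11.14 in mock, 10.65, 10.67 and 10.70 in NS siRNA, and 10.38, 10.62 and 10.69 in Nrf2 siRNA. It was lower than mock after Nrf2 siRNA (-0.45 ± 0.07, limma adjusted p = 0.000428) and after NS siRNA (-0.34, adjusted p = 0.00354), and the siRNA groups differed by -0.11 ± 0.07 (adjusted p = 0.251) with overlapping arrays. NDUFA9, a matrix-arm subunit near the ubiquinone site, stood at 12.09 ± 0.02 (SD, n = 3) in mock cells, 11.83 ± 0.02 in NS siRNA cells and 11.86 ± 0.05 in Nrf2 siRNA cells. It was lower than mock by 0.23 after Nrf2 siRNA (adjusted p = 0.00106) and by 0.26 after NS siRNA (adjusted p = 0.000488), and the siRNA groups differed by 0.03 (95% interval -0.06 to 0.12).

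The 2 members of complex I that rose against NS siRNA were NDUFB11 and NDUFA3, named because the count is small. NDUFB11 rose by 0.18 ± 0.05 (limma adjusted p = 0.00791) and stood 0.05 from mock. NDUFA3 rose by 0.15 ± 0.05 (adjusted p = 0.0294) and stood 0.10 from mock (adjusted p = 0.176), and its call was lost without NS siRNA replicate 1 (0.064), NS siRNA replicate 3 (0.109) or Nrf2 siRNA replicate 2 (0.114). The other lower members of complex I were also picked out after their values were seen. NDUFB3 of the membrane arm read 12.32, 12.19 and 12.28 in mock, 12.23, 12.23 and 12.18 in NS siRNA, and 11.98, 12.02 and 11.94 in Nrf2 siRNA, a fall of -0.23 and -0.28 (adjusted p = 0.00129 and 0.000465). NDUFA2 of the matrix arm fell by -0.22 and -0.28 (adjusted p = 0.00191 and 0.000409), also without overlap. NDUFB8 fell by -0.21 against NS siRNA alone (adjusted p = 0.00539; -0.14 against mock, adjusted p = 0.0553), and NDUFS4 by -0.15 against mock alone (adjusted p = 0.025; -0.10 against NS siRNA). NDUFA12 (-0.19 and -0.12), NDUFA10 (-0.14 and -0.14) and NDUFB2 (-0.13 and -0.14) were called lower against both, and NDUFA10 and NDUFB2 had another probe set called higher than NS siRNA, that of NDUFB2 also higher than mock. The NDUFA12 call against mock was lost whichever of the 9 arrays was left out (adjusted p from 0.0538 to 0.134), and that of NDUFS4 without mock replicate 1 or 2 or Nrf2 siRNA replicate 1 or 3 (0.0504 to 0.0952). Those of NDUFA10 and NDUFB2 against NS siRNA were lost without NS siRNA replicate 2 (0.0633 and 0.068). Against mock NDUFA10 was lost without mock replicate 2 or 3 or Nrf2 siRNA replicate 1 or 2 (0.053 to 0.0863), and NDUFB2 without mock replicate 2 or 3 or Nrf2 siRNA replicate 3 (0.0558 to 0.0651).

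**Figure D2:**
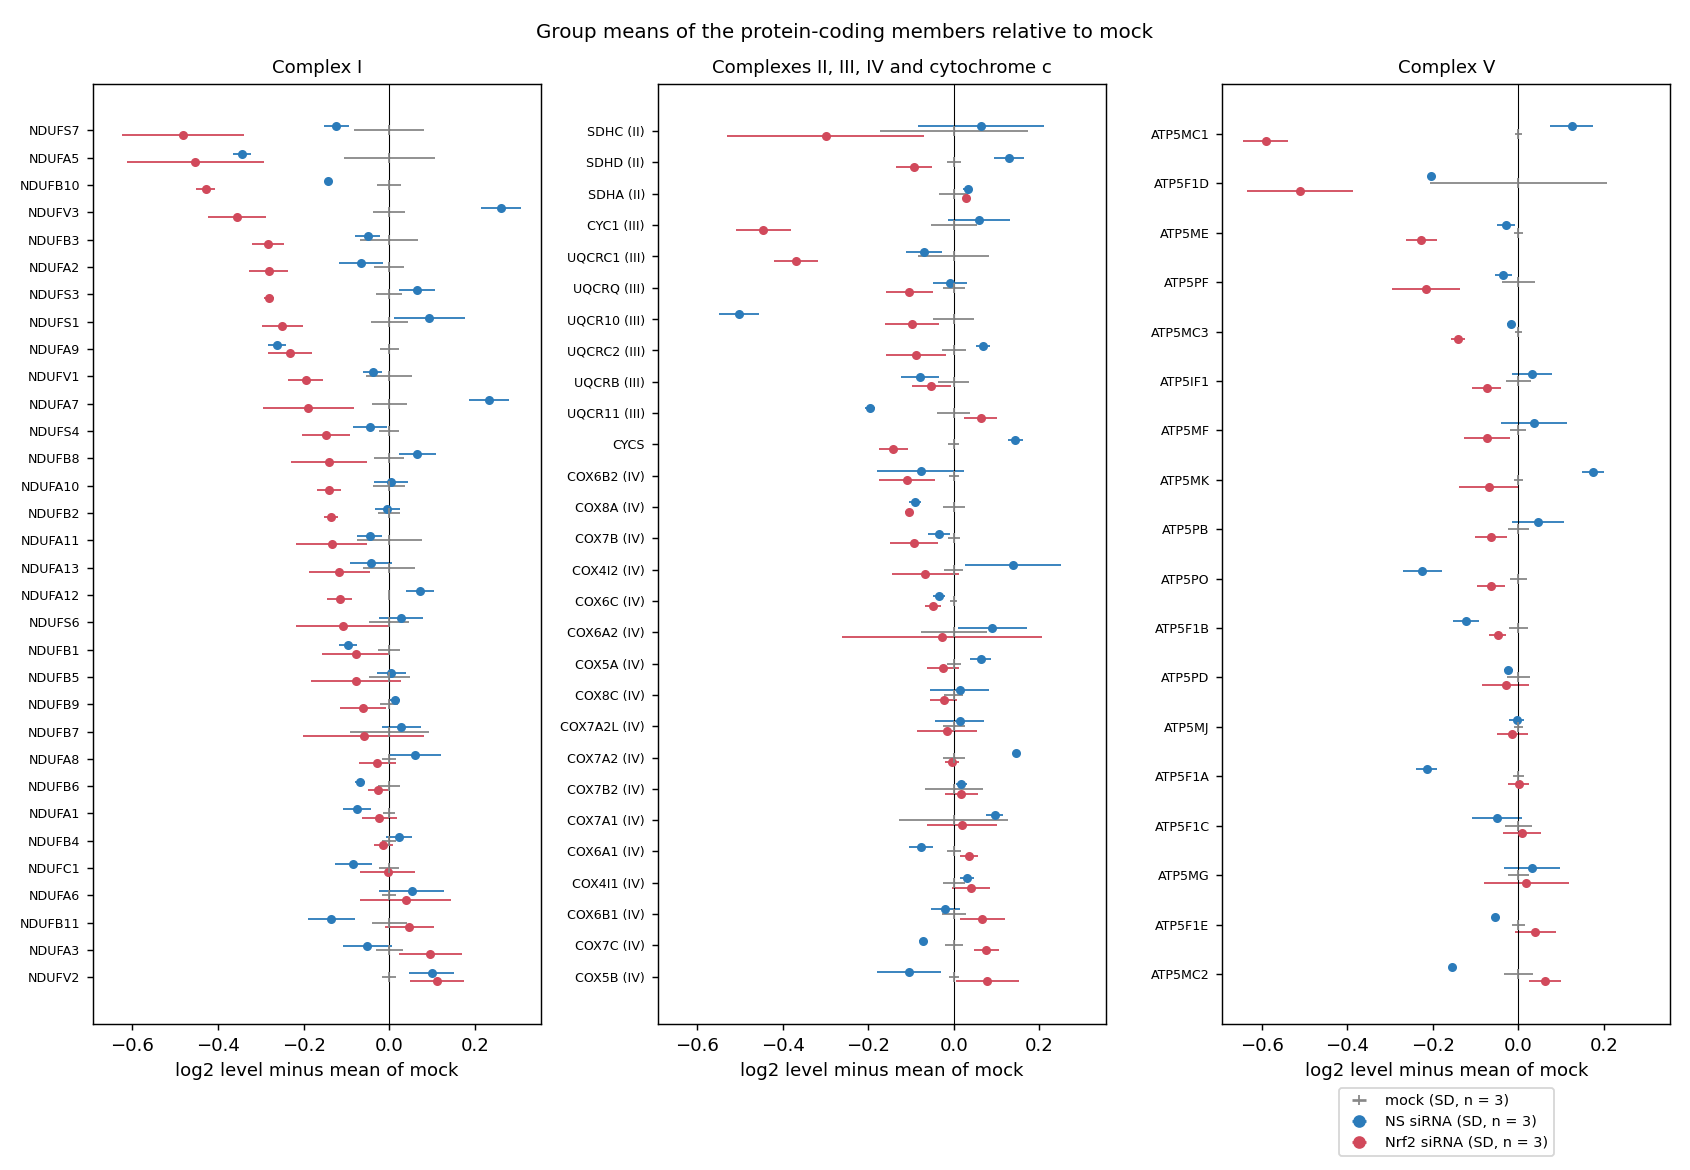
Mean log2 level of each protein-coding member minus its mean in mock (x axis, log2), for NS siRNA and Nrf2 siRNA, with the SD of each group (n = 3) as horizontal bars. NDUFS7 lies furthest left in complex I after Nrf2 siRNA (-0.48) and ATP5MC1 in complex V (-0.59), while UQCR10 lies furthest left after NS siRNA (-0.50).

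In complex II, SDHD fell against NS siRNA and SDHA did not pass against either control. SDHD, a membrane anchor that helps to bind ubiquinone, read 11.72, 11.69 and 11.70 in mock, 11.86, 11.85 and 11.79 in NS siRNA, and 11.57, 11.65 and 11.61 in Nrf2 siRNA. The Nrf2 siRNA arrays were below all controls. SDHD fell by -0.22 ± 0.04 against NS siRNA (limma adjusted p = 0.000911), while the -0.09 ± 0.04 against mock did not pass (adjusted p = 0.128). NS siRNA was above mock by 0.13 (adjusted p = 0.0382), a call lost without each mock array in turn and without NS siRNA replicate 1 or 2 (adjusted p from 0.0708 to 0.110). SDHA, the flavin-carrying catalytic subunit, stood at 10.89 ± 0.03 (SD, n = 3) in mock cells, 10.93 ± 0.01 in NS siRNA cells and 10.92 in Nrf2 siRNA cells, where its SD was 0.0040. The interval of its difference from NS siRNA ran from -0.09 to 0.08. The other anchor, SDHC, read 11.32, 11.58 and 11.26 in mock, 11.42, 11.61 and 11.32 in NS siRNA, and 11.28, 11.15 and 10.83 in Nrf2 siRNA, so that mock and Nrf2 siRNA arrays overlapped. It was called lower than NS siRNA (-0.36 ± 0.11, adjusted p = 0.0199) and not than mock (-0.30, adjusted p = 0.0638). The call was lost when Nrf2 siRNA replicate 3 (adjusted p = 0.0905) or NS siRNA replicate 2 (0.0891) was left out. Of the 7 SDHC probe sets 4 were called lower and 2 higher than NS siRNA, so the direction for this gene is uncertain.

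Complex III split. CYC1, cytochrome c1, whose haem passes electrons to cytochrome c, read 12.76, 12.85 and 12.76 in mock, 12.78, 12.93 and 12.83 in NS siRNA, and 12.28, 12.41 and 12.34 in Nrf2 siRNA. All 3 Nrf2 siRNA arrays lay below all 6 controls, which overlapped each other. CYC1 fell by -0.50 ± 0.05 against NS siRNA (SE; limma adjusted p = 5.31e-06) and by -0.44 against mock (adjusted p = 3.07e-05), to 70.5% and 73.5%, and the controls differed by 0.06 (adjusted p = 0.452). UQCRC1, a large core protein of the complex, read 11.98, 12.11 and 11.96 in mock, 11.93, 11.99 and 11.92 in NS siRNA, and 11.62, 11.71 and 11.61 in Nrf2 siRNA. It fell by -0.30 ± 0.05 against NS siRNA (adjusted p = 0.000411) and by -0.37 against mock (adjusted p = 0.000127), without overlap. UQCRC2, its partner, chosen after its values were seen, fell by -0.16 against NS siRNA (adjusted p = 0.0142; 0.0559 without Nrf2 siRNA replicate 1) and stood at -0.09 from mock, which did not pass.

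The small subunits UQCR10 and UQCR11 went the other way against NS siRNA, and in both the NS siRNA arrays were the lowest 3. UQCR10 read 13.12, 13.03 and 13.11 in mock, 12.57, 12.64 and 12.55 in NS siRNA, and 12.98, 13.06 and 12.94 in Nrf2 siRNA. NS siRNA stood below both other groups, which overlapped. UQCR10 was lower in NS siRNA than in mock by 0.50 ± 0.05 (limma adjusted p = 6.49e-06), the largest difference between the controls among the members, and higher in Nrf2 siRNA than in NS siRNA by 0.40 (adjusted p = 1.78e-05). Against mock it stood at -0.10 (adjusted p = 0.159), whereas its dimmer probe set was higher than mock by 0.37, so the direction against mock depends on the probe set. UQCR11 read 12.64, 12.70 and 12.63 in mock, 12.47, 12.47 and 12.45 in NS siRNA, and 12.73, 12.75 and 12.68 in Nrf2 siRNA. It rose by 0.26 ± 0.04 against NS siRNA (adjusted p = 0.00025) and was 0.06 from mock (adjusted p = 0.306). NS siRNA itself stood at -0.20 from mock (limma adjusted p = 0.00351). The dimmer UQCR11 probe set stood at -0.09 against NS siRNA and did not pass (limma adjusted p = 0.166). The interval for UQCRB, which helps to bind ubiquinone and was also chosen after its values were seen, ran from -0.07 to 0.13 against NS siRNA, while its dimmest probe set, at a mean of 6.27, was called lower (-0.80).

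CYCS, the soluble cytochrome c that carries electrons from complex III to complex IV and acts in apoptosis, read 13.74, 13.72 and 13.74 in mock, 13.89, 13.86 and 13.88 in NS siRNA, and 13.56, 13.63 and 13.58 in Nrf2 siRNA. The 3 groups did not overlap, with NS siRNA highest and Nrf2 siRNA lowest. CYCS fell by -0.28 ± 0.04 against NS siRNA (limma adjusted p = 7.65e-05) and by -0.14 against mock (adjusted p = 0.0172). The call against mock was lost without mock replicate 1 (adjusted p = 0.0563), mock replicate 3 (0.0517) or Nrf2 siRNA replicate 1 (0.0547).

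**Figure D3:**
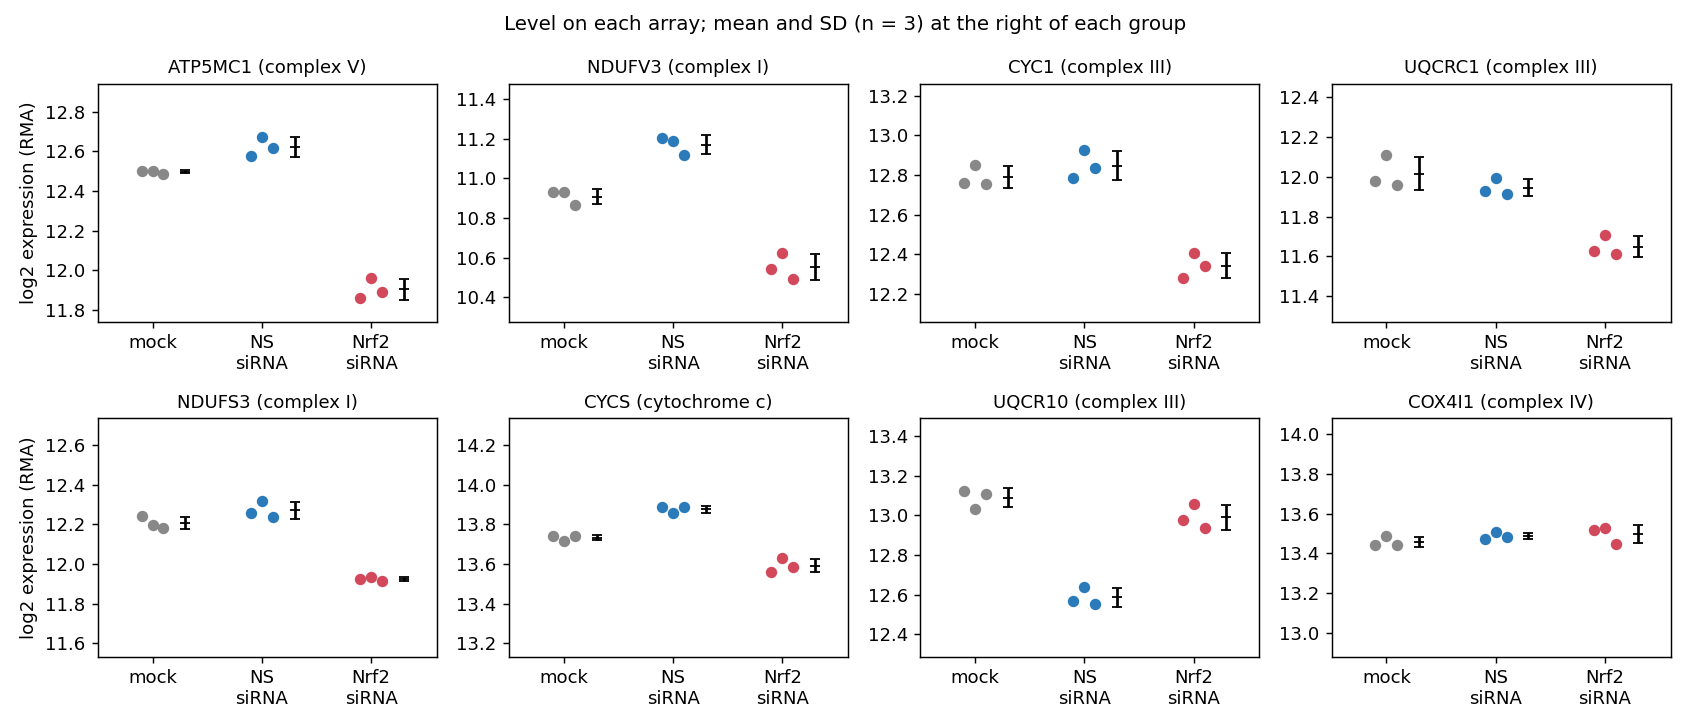
Log2 level (RMA, y axis) of 8 members on each of the 9 arrays, with the mean and SD (n = 3) to the right of each group; every panel has the same height in log2 units. ATP5MC1, NDUFV3, CYC1, UQCRC1, NDUFS3 and CYCS are lowest on all 3 Nrf2 siRNA arrays, UQCR10 is lowest on the NS siRNA arrays, and COX4I1 lies between 13.44 and 13.53 on all 9.

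Complex IV had few lower calls. Of all genes 26.6% were lower and 21.0% higher than NS siRNA, and 16.7% and 16.4% against mock. The 17 members of complex IV included 6 dim tissue-restricted isoforms. Of the 17 members 2 were lower and 3 higher than NS siRNA (11.8% and 17.6%). Against mock 0 passed in either direction (at an unadjusted limma p under 0.05, COX8A was lower, at -0.10, and 0 were higher). These counts moved with the setting: against mock up to 2 were lower (with probe sets averaged per gene, or with trend and robust variances) and up to 2 higher (with the probe set of largest interquartile range), and against NS siRNA 1 to 3 were lower and 1 to 4 higher. For the brightest probe sets of the 11 widely expressed members every 95% interval lay within -0.24 to 0.30 against NS siRNA and -0.19 to 0.19 against mock. Dimmer probe sets could fall outside. That of COX7B, at a mean of 6.78 and chosen after its values were seen, stood at -0.55 from mock (limma adjusted p = 1.88e-05). NS siRNA there stood at -0.45 from mock (limma adjusted p = 0.000131). COX4I1, the isoform of subunit 4 found in most tissues, read 13.44, 13.49 and 13.44 in mock, 13.47, 13.50 and 13.48 in NS siRNA, and 13.51, 13.53 and 13.44 in Nrf2 siRNA. Its difference from NS siRNA was 0.01 (interval -0.08 to 0.10) and from mock 0.04 (-0.05 to 0.13), while its dim probe set, at a mean of 8.28, was called higher by 0.25 and 0.38. COX7A2, the liver-type subunit 7a, read 12.87, 12.86 and 12.91 in mock, 13.03, 13.02 and 13.02 in NS siRNA, and 12.86, 12.89 and 12.87 in Nrf2 siRNA. It was lower in Nrf2 siRNA than in NS siRNA by 0.15 (adjusted p = 0.00801), and the mean in Nrf2 siRNA was that of mock within 0.01 (-0.00 ± 0.04, adjusted p = 0.954).

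The 3 higher members of complex IV were small nuclear-encoded subunits with Nrf2 siRNA arrays above all 6 controls. COX5B rose by 0.18 ± 0.05 against NS siRNA (limma adjusted p = 0.0116; 0.0501 without NS siRNA replicate 3). COX7C rose by 0.15 ± 0.04 (adjusted p = 0.00887). COX6A1 rose by 0.11 ± 0.04 (adjusted p = 0.0375), a call lost without mock replicate 1, NS siRNA replicate 1 or 2, or Nrf2 siRNA replicate 1 or 3 (adjusted p from 0.0519 to 0.109); its dimmer other probe set stood at -0.07. Against mock these members differed by 0.08, 0.08 and 0.04, none past the threshold.

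The tissue-restricted isoforms of complex IV were dim. COX4I2, the lung and hypoxia isoform of subunit 4, stood at 7.71 ± 0.02 (SD, n = 3) in mock cells, 7.85 ± 0.11 in NS siRNA cells and 7.64 ± 0.08 in Nrf2 siRNA cells. It was called lower than NS siRNA (-0.20 ± 0.06 SE, limma adjusted p = 0.0139), a call lost when Nrf2 siRNA replicate 1 (0.0559) or NS siRNA replicate 3 (0.0652) was left out. Against mock COX4I2 stood at -0.07 and did not pass (limma adjusted p = 0.458). The muscle isoforms COX6A2 (-0.12 ± 0.09) and COX7A1 (-0.08 ± 0.06), the testis isoform COX6B2 (-0.03 ± 0.06), COX7B2 (-0.00 ± 0.05) and COX8C (-0.04 ± 0.05) did not pass against NS siRNA. Their widely expressed partners COX6B1 and COX8A stood at 0.09 ± 0.04 and -0.01 ± 0.04, also not past the threshold. COX7A2L, a COX7A relative that joins complexes III and IV into supercomplexes, stood at -0.03 ± 0.05. COXFA4, the former NDUFA4, differed by 0.10 ± 0.04 from NS siRNA (adjusted p = 0.0682) and by 0.01 from mock. COXFA4L2 differed by -0.07 ± 0.06 and -0.03 ± 0.06.

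Against NS siRNA complex V moved in both directions, and that split ran through genes of a single subunit. Of its 18 members 6 were lower and 3 higher than NS siRNA (33.3% and 16.7%, beside 26.6% and 21.0% of all genes). Against mock 5 were lower and 0 higher (27.8% lower, beside 16.7% and 16.4% of all genes). In each of the 3 higher members, ATP5F1A, ATP5MC2 and ATP5PO, NS siRNA was itself called lower than mock. ATP5MC1, ATP5MC2 and ATP5MC3 encode the same mature protein, the c subunit of the rotating membrane ring; ATP5MC3 was added to the pair after its values were seen. ATP5MC1 read 12.50, 12.50 and 12.49 in mock, 12.57, 12.67 and 12.61 in NS siRNA, and 11.86, 11.96 and 11.89 in Nrf2 siRNA. This was the largest fall among the members: -0.72 ± 0.05 against NS siRNA (SE; limma adjusted p = 5.35e-08) and -0.59 against mock (adjusted p = 6.42e-07), to 60.9% and 66.4%. ATP5MC3 read 13.33, 13.32 and 13.33 in mock, 13.30, 13.32 and 13.31 in NS siRNA, and 13.17, 13.20 and 13.19 in Nrf2 siRNA. It fell by -0.12 (adjusted p = 0.0198; 0.054 without NS siRNA replicate 2 and 0.0505 without Nrf2 siRNA replicate 1) and by -0.14 against mock (adjusted p = 0.0134), while 1 of its 3 probe sets was called higher than NS siRNA. ATP5MC2 read 13.03, 13.09 and 13.06 in mock, 12.91, 12.91 and 12.90 in NS siRNA, and 13.09, 13.16 and 13.11 in Nrf2 siRNA. It rose by 0.22 ± 0.04 against NS siRNA (adjusted p = 0.000922) and stood 0.06 from mock (adjusted p = 0.307). NS siRNA itself stood at -0.15 from mock (limma adjusted p = 0.0139). The dimmer ATP5MC2 probe set stood at -0.12 against NS siRNA and did not pass (limma adjusted p = 0.143).

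Of the 12 subunits of the membrane part and the stalk, 5 were lower and 2 higher than NS siRNA (41.7% and 16.7%). Against mock 4 were lower and 0 higher (33.3% lower). Of all genes 26.6% were lower and 21.0% higher than NS siRNA, and 16.7% and 16.4% against mock. ATP5ME, subunit e, which holds ATP synthase dimers together, read 11.93, 11.95 and 11.94 in mock, 11.90, 11.90 and 11.94 in NS siRNA, and 11.71, 11.75 and 11.68 in Nrf2 siRNA. It fell by -0.20 ± 0.04 (limma adjusted p = 0.00149) and -0.23 (adjusted p = 0.000841). ATP5PF, coupling factor 6 of the stalk, fell by -0.18 and -0.22 (adjusted p = 0.00833 and 0.00389), with Nrf2 siRNA arrays from 12.24 to 12.40 and controls from 12.47 to 12.56. ATP5MK, a small membrane subunit, fell by -0.24 against NS siRNA (adjusted p = 0.000735) and stood at -0.07 from mock (adjusted p = 0.296), NS siRNA being above mock by 0.17 (adjusted p = 0.0116). ATP5PO, the stalk protein OSCP, rose by 0.16 against NS siRNA (adjusted p = 0.00835), was at -0.06 from mock, and was lower in NS siRNA than in mock by 0.22 (adjusted p = 0.00153).

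Of the 5 subunits of the catalytic head, 1 was lower and 1 higher than NS siRNA. These shares, 20% and 20%, were near the 26.6% and 21.0% of all genes. ATP5F1D, the delta subunit of the central shaft, read 10.84, 11.14 and 10.75 in mock, 10.70, 10.71 and 10.70 in NS siRNA, and 10.26, 10.50 and 10.43 in Nrf2 siRNA. It fell by -0.31 ± 0.09 against NS siRNA (limma adjusted p = 0.0128; 0.0563 without Nrf2 siRNA replicate 1) and by -0.51 against mock (adjusted p = 0.000624), and its other probe set fell as well. ATP5F1A, the alpha subunit, read 13.61, 13.64 and 13.63 in mock, 13.40, 13.44 and 13.40 in NS siRNA, and 13.62, 13.66 and 13.61 in Nrf2 siRNA. The NS siRNA arrays were the lowest 3. ATP5F1A was higher in Nrf2 siRNA than in NS siRNA by 0.21 ± 0.04 (adjusted p = 0.000721) and at 0.00 ± 0.04 against mock, and its dimmer other probe set was called lower (-0.22). The catalytic beta subunit ATP5F1B, chosen after its values were seen, differed by 0.07 (adjusted p = 0.158) from NS siRNA. ATP5IF1, the inhibitor that stops the enzyme from running backwards, differed by -0.11 ± 0.04 and -0.07 ± 0.04 and did not pass (limma adjusted p = 0.0661 and 0.235), whereas the dimmest of its 3 probe sets was called lower than both, at -0.42 and -0.49 (adjusted p = 0.00119 and 0.000654).

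Of the members that encode no protein, the antisense RNA NDUFV2-AS1 was called lower than NS siRNA (-0.22, limma adjusted p = 0.0139; 0.0613 without NS siRNA replicate 1 and 0.0646 without Nrf2 siRNA replicate 3) and so was the pseudogene COX6A1P1 (-0.14, adjusted p = 0.0376; lost without 5 of the 9 arrays, adjusted p from 0.0508 to 0.143). For COX6A1P1 those arrays were mock replicate 1, NS siRNA replicates 1 and 3 and Nrf2 siRNA replicates 1 and 2. Against mock NDUFV2-AS1 stood at -0.10 and COX6A1P1 at -0.04, neither past the threshold (limma adjusted p = 0.269 and 0.619). NDUFB2-AS1, NDUFV1-DT and the pseudogene ATP5MC2P1 did not pass in any of the 3 comparisons. Probe sets of a pseudogene can read its near-identical parent gene, so these values are uncertain.

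The factors that assemble the complexes are not subunits of the finished enzymes, and lower calls were frequent among them. Over the 4 lists 40 of 60 assembly factors were lower and 2 higher than NS siRNA, and 38 lower and 3 higher than mock, with median differences of -0.27 and -0.18. Lower calls were thus 66.7% and 63.3% of these lists, beside 26.6% and 16.7% of all genes. The lists were chosen with earlier results of these data known, so these shares are a description and not a test. For complex I 12 of 18 were lower and 1 higher than NS siRNA, 13 and 1 against mock. NDUFAF4, which acts early in complex I assembly, stood at 10.88 ± 0.01 (SD, n = 3) in mock cells, 11.25 ± 0.04 in NS siRNA cells and 10.40 ± 0.07 in Nrf2 siRNA cells, a fall of -0.86 ± 0.05 (SE; limma adjusted p = 1.49e-08) against NS siRNA and -0.48 against mock. DMAC1, a membrane-arm assembly factor, fell by -0.79 and -0.58, and NDUFAF8 by -0.49 and -0.44.

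For complex IV 19 of 26 assembly factors were lower and 0 higher than NS siRNA, and 17 lower and 1 higher than mock. The lower calls were 73.1% and 65.4%, beside 26.6% and 16.7% of all genes. COA6, which helps to load copper, stood at 11.53 ± 0.02 (SD, n = 3) in mock cells, 11.50 ± 0.03 in NS siRNA cells and 10.68 ± 0.07 in Nrf2 siRNA cells, at 56.9% of NS siRNA and 55.6% of mock (limma adjusted p = 1.65e-08 and 2.43e-08). PET117 fell by -0.79 and -0.69, COX20, a chaperone of the copper-bearing subunit 2, by -0.54 and -0.39, and SURF1, the early assembly factor mutated in Leigh syndrome, by -0.28 and -0.51, although its other probe set was called higher than mock. The 26 factors were compared with the 17 subunits by their counts alone, with no test. Mean signal ran from 5.42 to 12.94 for the factors and from 12.73 to 13.88 for the 11 widely expressed subunits. The part of signal level in the contrast was not tested.

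For complexes II and III 6 of 10 assembly factors were lower and 1 higher against each control (60% and 10%). Of all genes 26.6% were lower and 21.0% higher than NS siRNA, and 16.7% and 16.4% against mock. UQCC3, a factor of cytochrome b assembly, fell by -0.76 ± 0.06 and -0.57 (limma adjusted p = 2.29e-07 and 6.49e-06). UQCC1, its partner in that step, fell by -0.44 against NS siRNA and stood at -0.03 from mock, with NS siRNA above mock by 0.41. TTC19, which clears fragments of the Rieske protein from complex III, rose by 0.46 and 0.22. For complex V 3 of 6 were lower than NS siRNA and 2 than mock (50% and 33.3%), and 0 were higher than either. FMC1 fell by -0.55 and -0.44, and TMEM70, needed to build the c ring, by -0.36 and -0.23. TMEM242 fell by -0.16 (adjusted p = 0.035), with -0.07 from mock not past the threshold.

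**Figure D4:**
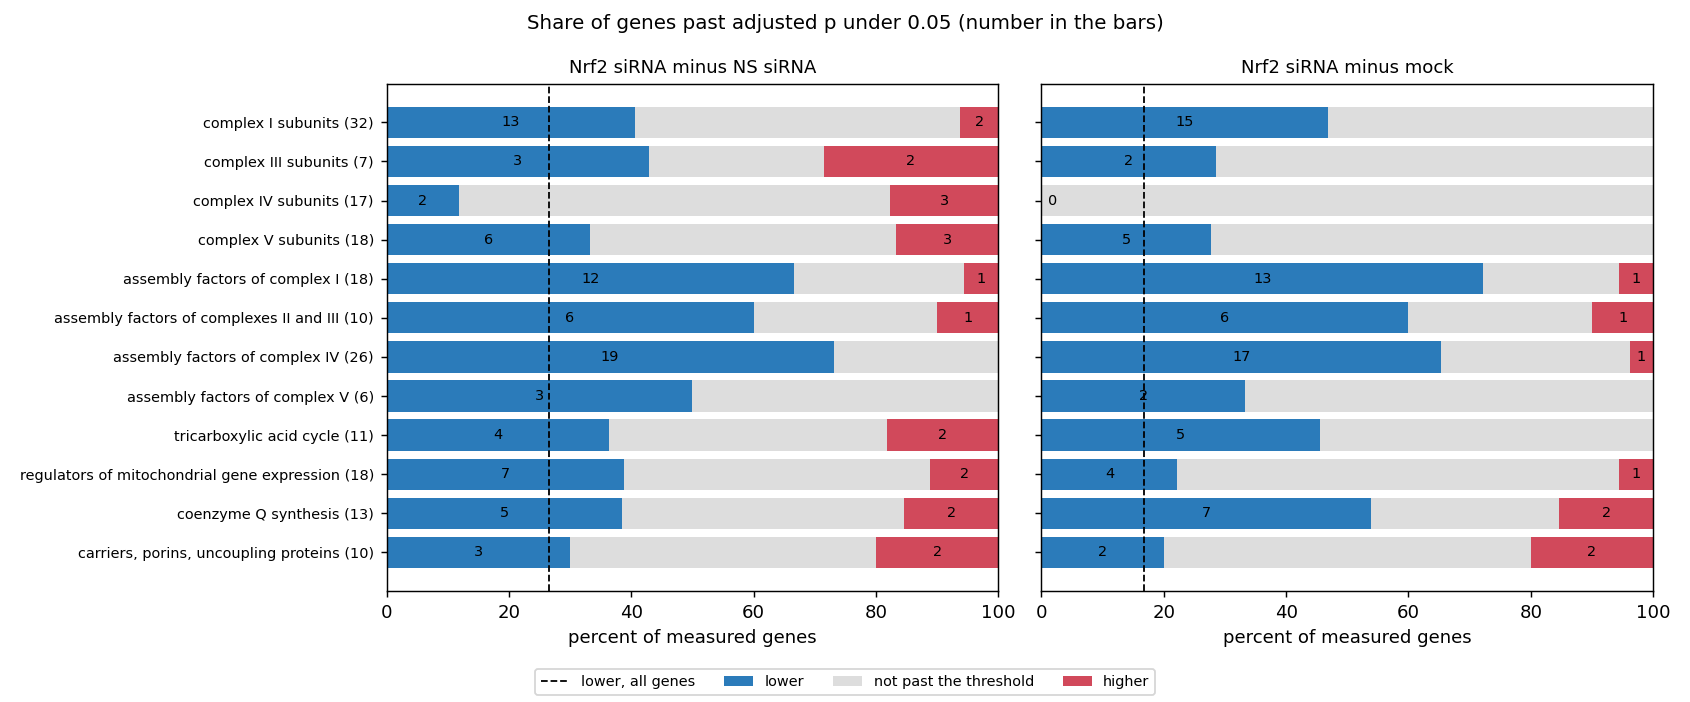
Percent of measured genes called lower (blue), higher (red) or neither (grey) at a limma adjusted p under 0.05, for the subunits of 4 complexes and 8 lists of related genes, with the number called in each bar and the number measured in brackets. The dashed line is the share of all genes called lower, 26.6% against NS siRNA and 16.7% against mock; assembly factors of complex IV reach 19 of 26 and its subunits 2 of 17.

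Among 18 regulators of mitochondrial gene expression 7 were lower and 2 higher than NS siRNA, and 4 lower and 1 higher than mock. The lower calls were 38.9% and 22.2%, beside 26.6% and 16.7% of all genes. POLRMT, the mitochondrial RNA polymerase, stood at 10.19 ± 0.09 (SD, n = 3) in mock cells, 10.22 ± 0.05 in NS siRNA cells and 9.41 ± 0.08 in Nrf2 siRNA cells, a fall of -0.81 ± 0.06 and -0.79 ± 0.06 (SE; limma adjusted p = 1.78e-07 and 5.21e-07). TFAM, which packs mitochondrial DNA and starts its transcription, stood at 11.15, 11.81 and 10.92. It fell by -0.89 against NS siRNA (adjusted p = 5.01e-09) and by -0.23 against mock (adjusted p = 0.00122), and NS siRNA was above mock by 0.66 (adjusted p = 2.19e-07). TFB2M, the transcription partner of POLRMT, fell by -0.37 and -0.19. NRF1 itself rose by 0.14 against NS siRNA (adjusted p = 0.0422) and stood 0.03 from mock, and the coactivator PPARGC1A, which was dim at 5.90 to 6.04, differed by -0.13 and -0.15 without passing.

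Of 11 measured enzymes of the tricarboxylic acid cycle, which supplies NADH and succinate, 4 were lower and 2 higher than NS siRNA, and 5 lower and 0 higher than mock (36.4% and 45.5% lower). DLD fell by -0.34 (limma adjusted p = 1.34e-05) and IDH3B by -0.33 (adjusted p = 6.71e-05) against NS siRNA, and against mock they stood at -0.09 and -0.12, not past the threshold. MDH2 fell by -0.30 and -0.33, but with the probe set of largest interquartile range it was higher than NS siRNA by 0.72, so its direction depends on the probe set. Of 13 genes of coenzyme Q (ubiquinone) synthesis 5 were lower and 2 higher than NS siRNA, and 7 and 2 against mock (38.5% and 53.8% lower, 15.4% and 15.4% higher, where all genes gave 26.6% and 16.7% lower, 21.0% and 16.4% higher). PDSS1, which makes the side chain, fell by -0.69 and -0.35, COQ8A by -0.44 and -0.17 and COQ4 by -0.36 and -0.32. Of 10 measured carriers, porins and uncoupling proteins 3 were lower and 2 higher than NS siRNA, and 2 and 2 against mock, shares near those of all genes. UCP2, an uncoupling-protein relative, was higher than NS siRNA by 0.83 (adjusted p = 2.48e-07) and at 0.16 from mock (adjusted p = 0.0711), NS siRNA being lower than mock by 0.67. SLC25A4, an ADP/ATP carrier, rose by 0.57 and 0.27, and VDAC2, an outer-membrane porin, fell by -0.40 and -0.23.

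The genes whose level followed that of CYC1 most closely over the 9 arrays were, among 13138 genes above the median level, SYNJ2 (Pearson r = 0.995), TUFM (0.991), FAH (0.990), AQP11 (0.990) and SNHG19 (0.989). TUFM is the mitochondrial translation elongation factor Tu. ATP5MC1 came next, in 6th place (0.989), and the members next in order were NDUFB2 in 81st and NDUFS3 in 146th place. COX7C (-0.85), COX6A1 (-0.76) and ATP5MC2 (-0.70) had the lowest correlations among the members. These values describe 9 arrays that fall into 3 groups, and no test was made.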

How the data were processed

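Total RNA of 9 A549 samples was labelled as biotinylated cRNA and read on an oligonucleotide array with 54675 probe sets, per the labels' protocols. The deposited values are log2 levels that the authors made with RMA, a method that includes normalization between arrays, per the submitters' processing notes; the RMA version is named in no label. They ran from 3.60 to 15.06, and 0 columns were left unused. Scanner files, scan dates and detection calls were not used here, so no batch could be examined.

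Of the probe sets 41091 named 1 gene, 1801 several, 11721 none and 62 were controls; only the first were used. A RefSeq table of GRCh38.p14 gave current symbols, matched by Entrez identifier for 41037 probe sets. The probe set with the highest mean over 9 arrays stood for each of 19775 genes. The 83 members had 160 probe sets, 37 members a single one.

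The fit was limma 3.58.1 in R 4.3.3 (lmFit, eBayes) on all 9 arrays with 3 group means; tests were two-sided, and a call is a Benjamini-Hochberg adjusted p under 0.05 across the 19775 genes. Probe sets on their own were adjusted over the 41091. SDs are over 3 arrays, SEs and 95% intervals come from limma. The fit was also run on simulated arrays with independent noise for each gene and no array effects. That run cannot show how reliable the calls on these arrays are. Genes were named by rule: CYC1, NFE2L2, up to 4 members per complex and comparison with the smallest adjusted p, the SDH subunits, CYCS, isoform pairs, ATP5IF1, COX7A2L, up to 3 genes per list, PPARGC1A, NRF1, TFAM and SURF1; others are said to be chosen after their values were seen. The members and lists were chosen with earlier results of these data known. The alternatives tried were scaling, probe set choice, a filter, variance moderation, the groups fitted, the replicate block, the threshold and each array left out. Figures were drawn with matplotlib 3.10.9.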

Additional observations from a re-analysis of the deposited data

How the results depend on the processing

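The counts over all 83 members kept within 1.5 times of the values reported under the alternatives run, with these exceptions. With each of the 160 member probe sets counted on its own, 44 were lower and 23 higher than NS siRNA, 39 lower and 5 higher than mock, and 21 lower in NS siRNA than in mock. At an adjusted p under 0.01, 19 members were lower than NS siRNA and 2 were higher in NS siRNA than in mock. The 0 members higher than mock after Nrf2 siRNA became 1 with quantile normalization, 1 with probe sets averaged per gene, 6 with the probe set of largest interquartile range and 2 with trend and robust variances. Between the controls, trend and robust variances gave 16 lower members and equal array medians 3 higher ones. Leaving out each array in turn gave 24 to 31 lower and 8 to 11 higher members against NS siRNA, 18 to 25 lower and 0 to 1 higher against mock (1 without Nrf2 siRNA replicate 3), and 6 to 10 lower and 4 to 7 higher for NS siRNA against mock. Counts by complex are small and moved more. Over all these settings, complex I had 1 to 5 higher members against NS siRNA (2 reported) and 0 to 1 against mock (0). Complex III had 2 to 4 lower against mock (2), and 1 to 2 higher against NS siRNA (2) and 0 to 1 against mock (0). Complex IV had 1 to 3 lower (2) and 1 to 4 higher (3) against NS siRNA, and 0 to 2 lower and 0 to 2 higher against mock (0 and 0). Complex V had 1 to 5 higher against NS siRNA (3) and 0 to 2 against mock (0). For NS siRNA against mock, complex I had 2 to 6 lower (3) and 1 to 4 higher (2), complex III 1 to 2 lower (2), complex IV 0 to 4 lower (0) and 0 to 2 higher (1), and complex V 2 to 4 lower (4) and 0 to 2 higher (1).

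Whether the replicate numbers pair the arrays of different groups was not settled. Deviations from the group means correlated at -0.21 to 0.23 for same-numbered arrays and at -0.34 to 0.20 for the others, and these ranges overlap. With the replicate block 30 members were lower and 10 higher than NS siRNA, 27 lower and 0 higher than mock, and 10 lower and 7 higher in NS siRNA than in mock.

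Reversals came from the choice of probe set. With probe sets averaged per gene, ATP5F1A stood at -0.00482 and MDH2 at 0.21 against NS siRNA, UQCR10 at 0.13 against mock, and SURF1 at 0.0079 in NS siRNA against mock. With the probe set of largest interquartile range ATP5PO stood at -0.16, COX6A1 at -0.0726, MDH2 at 0.72 and SDHC at 0.42 against NS siRNA, MDH2 at 0.0507 and UQCR10 at 0.37 against mock, and ATP5PO at 0.26 and SDHC at -0.47 in NS siRNA against mock. Of 39 members called against NS siRNA 26 had several probe sets, all of 1 sign in 12, and 5 had a probe set called the other way: ATP5F1A, ATP5MC3, NDUFA10, NDUFB2 and SDHC. Over all named genes and alternatives 3426 values kept direction and call, 57 gained a call, 111 lost one and 12 reversed. The causes were not tested. Signal over background limits the dim isoforms.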
